A study of Mus musculus with 30 samples.

Results

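The pre-pro B and pre-B stages were compared in cells of wild-type (WT) C57BL/6 mice, with both Ikzf3 alleles intact. There were 3 RNA libraries of pre-pro B cells and 3 of pre-B cells, out of 18 RNA libraries and 30 samples in the series. The 6 libraries were taken by their labels alone, and the difference between the stages was followed across all genes. Both populations came from bone marrow that had been enriched for the B lineage surface protein B220 and then sorted. Per the labels' protocols, both gates took cells positive for B220 and AA4.1 and negative for IgM. The pre-pro B gate then took CD43+ cells without CD24, and the pre-B gate CD24+ cells without CD43. Cells with both CD43 and CD24 were in neither gate, so the folds span any stage between these populations. The other 12 RNA libraries, used here for the estimate of spread and for one comparison at the end, came from the same stages of mice with the G158R substitution in Ikzf3, which encodes the zinc finger factor Aiolos, on 1 copy (het) or both copies (homo). Peak lists from Ikaros and Aiolos immunoprecipitation came from another population of WT pre-B cells, grown from B220+ IgM- marrow on Tst-4 stroma with IL-7, SCF and Flt3L. The labels give neither the age nor the sex of the mice and do not say whether libraries of a group came from separate animals, so the p-values measure only the spread between libraries.

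B cells form in the bone marrow in steps that are set by surface proteins and by the state of the immunoglobulin genes. Pre-pro B cells are at the entry to the lineage, and this gate is known to hold cells with other fates as well, plasmacytoid dendritic cells among them. The factors Tcf3, Ebf1 and Pax5 switch on the B cell programme, the RAG enzymes assemble the heavy chain gene, and a finished heavy chain pairs with a surrogate light chain into the pre-B cell receptor, which drives division and then light chain assembly in pre-B cells.

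The 6 libraries held 5443344, 6080563 and 6492192 counts in genes for pre-pro B cells and 6187816, 5556696 and 6105813 for pre-B cells, so depth was alike in both groups. Levels are given as CPM, read counts scaled to library size with TMM factors, as mean ± SD of 3 libraries, and the log2 fold of pre-B over pre-pro B cells carries its standard error. Across genes, log levels of libraries of one WT stage correlated at 0.9917 to 0.9953 and those of different stages at 0.7761 to 0.8011. All 6 libraries came from XX mice by their Xist and Y-linked counts. Genes with near-identical copies had few counts (Gapdh stood at 6.56 ± 0.446 and 7.05 ± 0.432 CPM), so the levels of such genes are uncertain, and the sources used here do not say whether counting used strand, so reads of a gene and its antisense partner cannot be told apart.

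Genes for the proteins used in the sort moved with the gates in part. Spn, the gene of CD43, was lower in pre-B cells, at 159 ± 1.54 CPM against 430 ± 14.6 CPM (log2 −1.44 ± 0.12, adjusted p = 6.73e-09). Cd24a rose from 73.7 ± 13.1 to 330 ± 12.2 CPM (log2 2.16 ± 0.31, 7.08e-06). Cd93, which encodes AA4.1 and was gated as positive in both, rose from 150 ± 24.3 to 665 ± 25.9 CPM. Ptprc, the gene of CD45 and its isoform B220, fell from 865 ± 37.8 to 511 ± 17.5 CPM. The gene for IgM heavy chain, Ighm, had no entry under this symbol in the counts, so it was not analysed here.

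The B lineage marker genes stood far apart between the stages. Pax5 was at 12.2, 8.49 and 12.5 CPM in the pre-pro B libraries and at 208, 213 and 201 CPM in the pre-B libraries. Rag1 was at 124, 98.9 and 116 CPM and then at 1090, 1120 and 988 CPM. Ms4a1, which encodes the surface protein CD20, was at 1.13, 0.499 and 2.02 CPM and then at 140, 116 and 97 CPM. Siglech, a surface lectin of plasmacytoid dendritic cells, went the other way, from 757, 687 and 641 CPM to 0.479, 0.179 and 0.322 CPM. The stages did not overlap for any of these 4 genes, as was so for 79.8% of all genes tested. The libraries labelled pre-B were thus high in the B cell markers and near 0 for Siglech. Those labelled pre-pro B were high in Siglech, with Rag1 well detected, Pax5 low and Ms4a1 near 0. In bulk RNA, fewer cells of a type and less RNA per cell cannot be told apart.

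**Figure D1:**
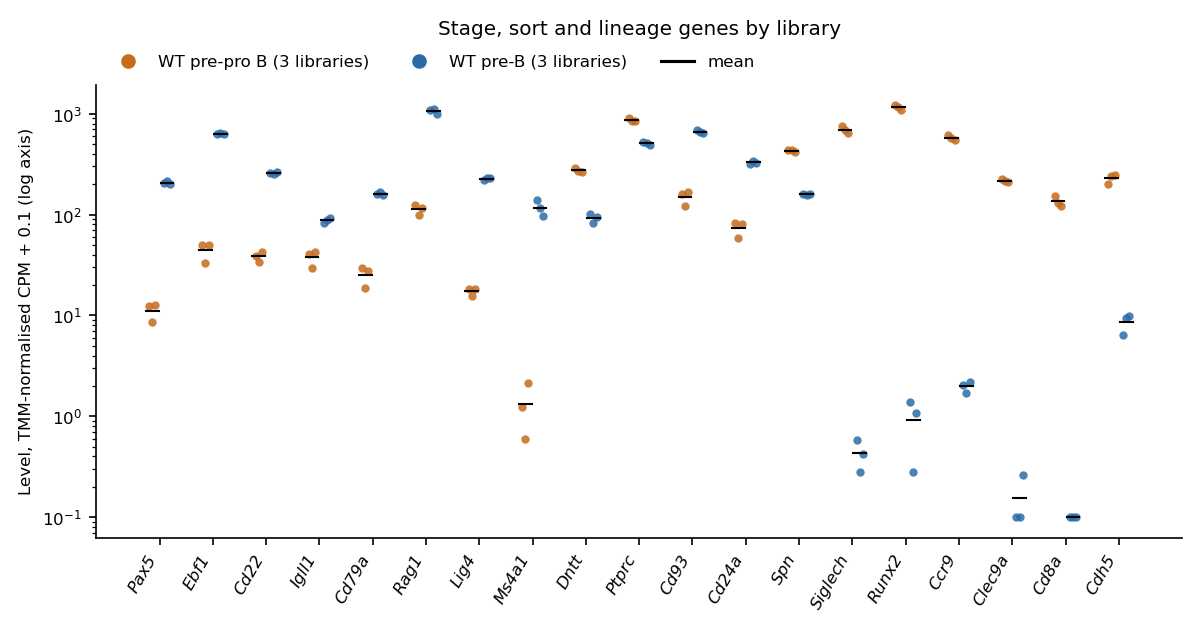
Levels of stage, sort and lineage genes in each WT library, as TMM-normalised CPM with 0.1 added, on a log axis; orange points are the 3 pre-pro B libraries, blue points the 3 pre-B libraries and black bars the means. B cell genes such as Pax5 and Ebf1 lie higher in pre-B cells, and dendritic, T cell and endothelial genes such as Siglech, Cd8a and Cdh5 lie lower.

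Most of the transcriptome differed between the stages. Of 12440 genes tested, 3851 were higher and 4146 lower in pre-B cells at an adjusted p under 0.05 (64.3% called, 31% higher and 33.3% lower), and 4443 were not called. The median log2 fold of all genes tested was −0.00949. Against a minimum of 2-fold, 1291 genes were higher (10.4%) and 1898 lower (15.3%). The largest differences were mostly losses: of the genes called, 188 were at least 16-fold higher and 659 at least 16-fold lower. The libraries of the stages did not overlap for 79.8% of the genes tested. Genes called higher held 23.7% of the gene CPM in pre-pro B cells and 44% in pre-B cells, and genes called lower 42.2% and 18.8%.

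**Figure D2:**
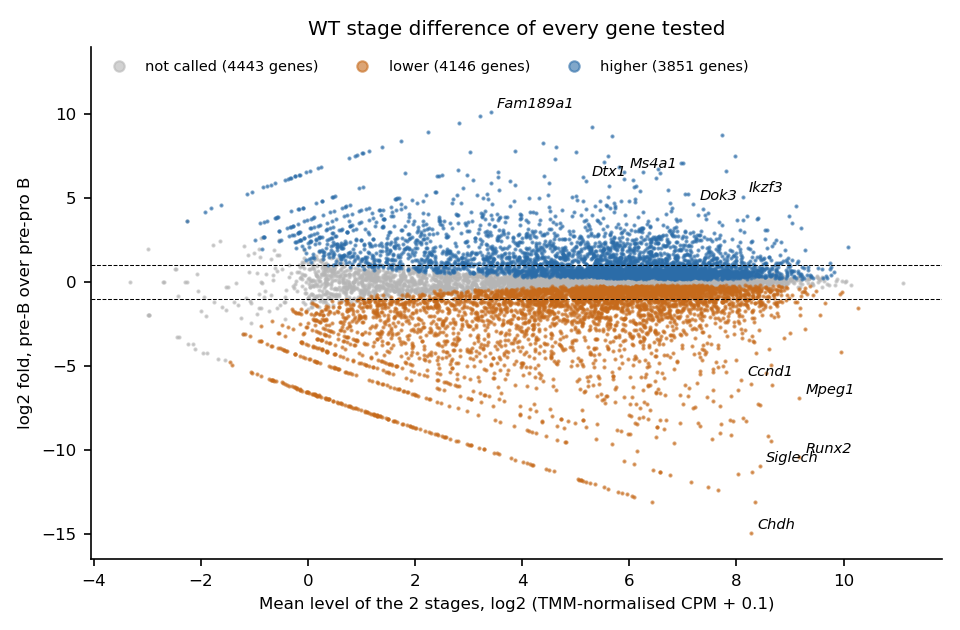
Each point is 1 of the 12440 genes tested: log2 fold of pre-B over pre-pro B cells against the mean level of both stages (log2 of TMM-normalised CPM + 0.1), coloured by the call; dashed lines mark 2-fold. Falls reach further from 0 than rises, and the straight rows at the edges are genes with few or no counts in one stage.

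The genes of the pre-B cell receptor rose as a group. Of 6 members tested, 5 were higher and none lower (83.3% called, beside 64.3% of all genes), with a median log2 fold of 1.57. Igll1 and Vpreb1, which encode the surrogate light chain, were among the smaller rises: Igll1 stood at 40.7, 29.5 and 42.7 CPM and then at 82.9, 87.8 and 91.4 CPM (log2 1.21 ± 0.23, adjusted p = 0.000171), and Vpreb1 rose from 16.2 ± 1.43 to 33.5 ± 0.835 CPM. The signalling chains of the receptor rose further, Cd79a from 25.2 ± 5.62 to 161 ± 5.37 CPM (log2 2.67 ± 0.20) and Cd79b from 75.3 ± 2.57 to 284 ± 11.8 CPM (log2 1.92 ± 0.22). Vpreb3, whose product binds immunoglobulin chains in the endoplasmic reticulum, rose from 17 ± 3.49 to 135 ± 3.56 CPM, and Vpreb2 was not called (2.13 ± 0.335 and 3.29 ± 0.835 CPM). Igll1 and Vpreb1 were thus both detected in the libraries labelled pre-pro B, and which cells of that gate held them was not tested. Pre-pro B replicate 2 was the lowest of its group for 6 of the 6 genes tested. For Igll1 and Vpreb1 the libraries did not overlap between the stages, as was so for 79.8% of all genes tested. The constant region genes Ighm, Ighd, Igkc, Iglc1 and Iglc2 had no entry under these symbols in the counts, so they were not analysed here.

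Transcription factors of the B lineage were mostly higher. Of 22 tested, 16 were higher, 3 lower and 3 not called (86.4% called, beside 64.3% of all genes), with a median of 1.07. Pou2af1, a coactivator of octamer-binding factors, rose from 38.9, 24.5 and 43.3 CPM to 541, 578 and 538 CPM (log2 3.96 ± 0.28, adjusted p = 7.27e-10), and Ebf1, which specifies the lineage, from 50.3, 32.8 and 49.4 CPM to 627, 643 and 629 CPM (log2 3.84 ± 0.30). Lef1, a partner of beta-catenin, rose from 24.1 ± 2.05 to 163 ± 22.4 CPM. Factors already well expressed at the first stage rose less, with Foxo1 at log2 1.51 ± 0.10, Myb at 1.44 ± 0.21 and Tcf3, which encodes the E2A proteins, at 1.33 ± 0.09. Smaller calls were Runx1 (0.72 ± 0.10), Bcl6 (0.67 ± 0.12), Ets1 (0.44 ± 0.11) and Spi1 (0.32 ± 0.13), and that of Spi1 was lost without any 1 of the 6 libraries (adjusted p = 0.0686 to 0.13). Irf8 fell from 926 ± 73.2 to 236 ± 17.4 CPM, Bcl11a from 704 ± 14 to 170 ± 5.97 CPM and Mef2c from 372 ± 14.3 to 226 ± 8.67 CPM. Those 3 factors act in B cells, and Irf8 and Bcl11a are also on the list of plasmacytoid dendritic genes, which fell as described further on. Ikzf1, Klf2 and Spib were not called (log2 0.21 ± 0.15, 0.10 ± 0.11 and −0.06 ± 0.12).

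Promoter sequences show what stands at the starts of genes that rose or fell between the stages. They are RefSeq reference sequences (GRCm38.p6), 250 bases before to 50 after the start, given for 1 surrogate light chain gene, a B cell surface gene and a mitotic gene that rose, and for a pair of dendritic genes that fell. Both strands were searched for the E-box CAGCTG bound by E2A proteins, the EBF motif (TCCC, any 2 bases, GGGA), the Ikaros core TGGGAA and the ETS motif CCGGAAG, and no match overlapped another in the 5 promoters shown. Capitals mark the matches, TTCCCA being TGGGAA on the other strand.
Igll1: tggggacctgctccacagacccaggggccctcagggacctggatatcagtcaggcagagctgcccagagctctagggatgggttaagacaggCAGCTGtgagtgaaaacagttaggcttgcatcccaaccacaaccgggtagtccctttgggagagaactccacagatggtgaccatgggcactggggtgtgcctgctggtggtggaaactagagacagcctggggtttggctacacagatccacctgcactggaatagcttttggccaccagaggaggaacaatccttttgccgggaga
Cd22: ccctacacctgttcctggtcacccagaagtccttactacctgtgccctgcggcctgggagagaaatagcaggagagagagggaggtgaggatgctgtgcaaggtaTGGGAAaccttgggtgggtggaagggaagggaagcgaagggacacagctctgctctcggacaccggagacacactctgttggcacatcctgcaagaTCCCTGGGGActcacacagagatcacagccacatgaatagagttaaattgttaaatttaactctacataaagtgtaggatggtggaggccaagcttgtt
Cdc20: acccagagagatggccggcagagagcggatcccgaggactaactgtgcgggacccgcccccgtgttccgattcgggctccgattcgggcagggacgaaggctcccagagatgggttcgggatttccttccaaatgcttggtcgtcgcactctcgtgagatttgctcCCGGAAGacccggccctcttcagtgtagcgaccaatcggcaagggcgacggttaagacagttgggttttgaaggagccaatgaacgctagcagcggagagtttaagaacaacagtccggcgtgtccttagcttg
Runx2: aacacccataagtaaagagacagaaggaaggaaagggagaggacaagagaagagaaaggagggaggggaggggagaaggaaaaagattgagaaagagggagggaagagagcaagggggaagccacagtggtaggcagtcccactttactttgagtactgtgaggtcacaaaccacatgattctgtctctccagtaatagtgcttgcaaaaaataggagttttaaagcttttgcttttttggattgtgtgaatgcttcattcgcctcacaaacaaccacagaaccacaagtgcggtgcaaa
Siglech: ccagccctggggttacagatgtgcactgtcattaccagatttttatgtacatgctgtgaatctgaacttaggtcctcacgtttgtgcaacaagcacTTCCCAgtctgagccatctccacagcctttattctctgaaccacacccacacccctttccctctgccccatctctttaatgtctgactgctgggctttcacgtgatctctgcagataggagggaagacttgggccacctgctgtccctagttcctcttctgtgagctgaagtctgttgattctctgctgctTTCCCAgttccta
They lie at chr16:16863936-16864235 (minus strand), chr7:30878979-30879278 (minus), chr4:118437294-118437593 (minus), chr17:44814578-44814877 (minus) and chr7:55767934-55768233 (plus). Igll1 holds 1 E-box, Cd22 holds 1 EBF motif and 1 Ikaros core, Cdc20 holds 1 ETS motif, Siglech holds 2 Ikaros cores, and none of these 4 motifs was found in the Runx2 window. Among 27025 promoters of the same length, 16.1% held the E-box, 0.914% the EBF motif, 25.5% the Ikaros core and 9.12% the ETS motif. A promoter was at hand for 9951 of the 12440 genes tested (79.99%), and motif shares were not compared between gene groups.

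Most genes that cut and join receptor gene segments rose. Of 15 genes of V(D)J recombination and end joining, 10 were higher, 2 lower and 3 not called, with a median of 1.4. The share called was 80%, beside 64.3% of all genes. Lig4, the ligase of end joining, went from 18, 15.6 and 18.2 CPM to 221, 231 and 232 CPM (log2 3.72 ± 0.10, adjusted p = 4.13e-15). Polm and Poll, polymerases that fill gaps at the ends, rose from 35.1 ± 3.01 to 287 ± 16.9 CPM and from 1.65 ± 0.453 to 12.6 ± 1.69 CPM. The Ku subunits Xrcc5 and Xrcc6, which hold the broken ends, rose by log2 2.74 ± 0.21 and 1.40 ± 0.14. Dntt, which encodes the terminal transferase that adds bases at heavy chain joints, fell from 288, 272 and 265 CPM to 102, 82.2 and 93.9 CPM (log2 −1.56 ± 0.19, 8.27e-07), and Dclre1c, which encodes the hairpin opener Artemis, fell from 219 ± 9.03 to 145 ± 6.88 CPM. Prkdc, Atm and Xrcc4 were not called (−0.13 ± 0.11, −0.15 ± 0.10 and 0.15 ± 0.15).

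Receptor signalling genes moved in both directions. Of 22 tested, 10 were higher, 8 lower and 4 not called (81.8% called, beside 64.3% of all genes). The median was 0.157 beside −0.00949 for all genes. Dok3, an adaptor that restrains receptor signals, rose from 13, 8.32 and 12.1 CPM to 290, 295 and 257 CPM (log2 4.66 ± 0.29, adjusted p = 1.68e-10). The adaptor gene Bank1 rose from 5.06 ± 0.155 to 46.7 ± 2.58 CPM, the inhibitory receptor gene Cd22 from 38.4 ± 4.45 to 259 ± 4.65 CPM and the kinase gene Blk from 83.6 ± 5.65 to 284 ± 10.9 CPM. Kinases of the core pathway changed less, with Btk at log2 0.74 ± 0.09 and Syk at 0.57 ± 0.13. Lyn, Blnk and Plcg2 were not called (0.06 ± 0.14, 0.26 ± 0.19 and −0.07 ± 0.08). Fyn, a Src family kinase, fell from 604 ± 36.3 to 85 ± 3.23 CPM, Vav2 from 404 ± 23 to 167 ± 20.2 CPM and the phosphatase gene Ptpn6 from 437 ± 23.9 to 232 ± 8.96 CPM.

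In the IL-7 and JAK-STAT pathway, which carries survival and growth signals to early B cells, members went in both directions. Of 15 tested, 4 were higher, 7 lower and 4 not called (73.3% called, beside 64.3% of all genes, median −0.0474). Higher were Socs2 (6.38 ± 2.88 to 31.8 ± 7.48 CPM, log2 2.30 ± 0.38), Socs1 (log2 1.62 ± 0.36), Pim1 (1.27 ± 0.12) and Pim2 (0.73 ± 0.18). Socs3 fell from 28.7, 36.1 and 30.1 CPM to 1.12, 2.33 and 1.93 CPM (log2 −4.14 ± 0.34, adjusted p = 5.95e-09). Jak2 (−1.28 ± 0.14), Jak3 (−1.20 ± 0.17), Stat3 (−1.12 ± 0.12), Stat5a (−1.04 ± 0.13) and Stat5b (−0.65 ± 0.14) fell too, as did Crlf2, a receptor subunit for the cytokine TSLP (−1.11 ± 0.23). The receptor gene Il7r was not called, at 352, 319 and 331 CPM and then 454, 543 and 485 CPM (log2 0.57 ± 0.28, 0.0896). Its libraries did not overlap, as was so for 79.8% of all genes tested.

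Genes of cell division were higher in pre-B cells almost without exception. All 21 mitosis genes were higher, with a median of 2.55, and 25 of 26 DNA replication genes, with a median of 1.59, beside 31% of all genes. Cenpe, a motor at kinetochores, rose from 51.6, 41.3 and 94.5 CPM to 455, 522 and 530 CPM (adjusted p = 8.81e-08). Mki67, the proliferation marker, went from 378, 274 and 569 CPM to 1660, 1859 and 1774 CPM (log2 2.12 ± 0.29). E2f2, an activator of S phase genes, rose from 46.2 ± 11.1 to 620 ± 30.5 CPM (log2 3.74 ± 0.19), and Pola1, Rrm2 and Pole by log2 2.16 ± 0.21, 2.11 ± 0.20 and 2.03 ± 0.17. The helicase subunits Mcm2 to Mcm7 rose by 0.76 to 1.37, and Tk1 was not called (0.20 ± 0.13). The pre-pro B libraries differed among themselves here: replicate 3 was the highest for 21 of 21 mitosis genes and replicate 2 the lowest for 21 of 21, with summed levels of 1300.0, 880 and 2167 CPM against 7084, 7764 and 7570.0 CPM in pre-B cells. The mitosis median was 3.01 without pre-pro B replicate 3 and 2.24 without replicate 2, and all 21 genes stayed called in both cases.

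Most regulators of G1 rose, with cyclin D1 as the exception. Of 18 tested, 12 were higher and 1 lower (72.2% called, beside 64.3% of all genes), with a median of 0.897. The single fall was that of Ccnd1, the gene of cyclin D1, from 575, 515 and 513 CPM to 7.67, 9.49 and 10.6 CPM (log2 −5.85 ± 0.16, adjusted p = 2.84e-15). Ccnd3, the D-type cyclin that pre-B cells are known to need, rose from 163 ± 10.8 to 252 ± 12.4 CPM (log2 0.63 ± 0.10), and Ccnd2 was not called (108 ± 10.9 and 109 ± 20.6 CPM). The inhibitor genes Cdkn1a (10.2 ± 3.92 to 40.7 ± 2.72 CPM), Cdkn2c (54.3 ± 21.4 to 171 ± 4.08 CPM) and Cdkn1b (139 ± 5.82 to 219 ± 12.2 CPM) rose beside the cell cycle genes. Mycn rose from 0.929 ± 0.547 to 5.08 ± 0.412 CPM and Myc from 14.4 ± 4.1 to 31.5 ± 6.8 CPM.

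Chromatin genes showed small differences, 12 of 22 higher and 4 lower (72.7% called, beside 64.3% of all genes, median 0.344). Ezh2, the methyltransferase of the Polycomb repressive complex, rose from 120 ± 20.1 to 414 ± 18.3 CPM (log2 1.78 ± 0.24, adjusted p = 4.81e-06), and its paralog Ezh1 fell from 137 ± 10.9 to 91.1 ± 7.27 CPM (−0.58 ± 0.10). Dnmt1, which copies DNA methylation after replication, rose by 1.15 ± 0.13, and Dnmt3a, which sets it anew, fell by 0.52 ± 0.09 on the log2 scale. The demethylase genes Tet1 and Tet2 fell too (−1.01 ± 0.17 and −0.86 ± 0.12), while Tet3 was not called (−0.07 ± 0.12). Smarca4, the motor of the BAF remodelling complex, rose from 532 ± 6.24 to 1187 ± 54.6 CPM.

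**Figure D3:**
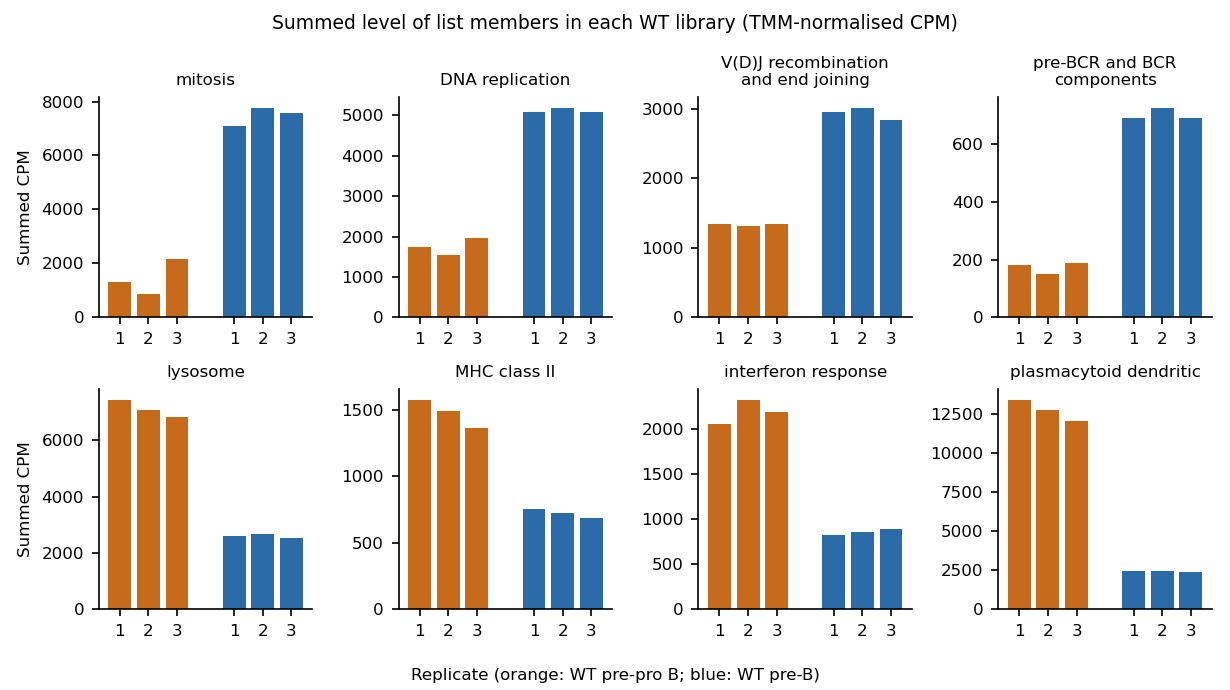
Summed TMM-normalised CPM of the members of 8 gene lists in each WT library, orange for pre-pro B and blue for pre-B cells, with a bar per replicate. Mitosis sums are 880 to 2167 CPM in pre-pro B cells with replicate 3 the highest, against 7084 to 7764 CPM in pre-B cells; lysosome, MHC class II, interferon and plasmacytoid dendritic sums are lower in every pre-B library.

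Sugar handling genes were mostly lower. Of 21 genes of glucose uptake and glycolysis, 12 were lower, 2 higher and 7 not called (66.7% called, beside 64.3% of all genes, median −0.439). The transporter gene Slc2a6 fell from 149, 157 and 148 CPM to 1.92, 1.61 and 1.61 CPM (log2 −6.45 ± 0.23, adjusted p = 9.6e-14) and Slc2a3, encoding the transporter GLUT3, from 194 ± 3.5 to 22.1 ± 3.21 CPM. Pfkp (−1.22 ± 0.13), Hk1 (−1.20 ± 0.16) and Pfkm (−1.11 ± 0.17), which catalyse early steps of glycolysis, fell as well. The monocarboxylate transporter gene Slc16a1 rose from 18.4, 6.83 and 21.8 CPM to 330, 320 and 306 CPM (log2 4.34 ± 0.27), and Tpi1 rose by 0.95 ± 0.10. Slc2a1, the gene of GLUT1, was not called (−0.27 ± 0.17).

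The lysosome, the secretory pathway and antigen presentation went down together. The share called was 95.8% of the lysosome, 81.8% of the secretory and 90% of the MHC class II genes, beside 64.3% of all genes. Of 24 lysosome genes, 21 were lower, 2 higher and 1 not called (median −1.23), and their summed level went from 6825 to 7422 CPM down to 2549 to 2654 CPM. The cathepsin genes Ctsl and Ctsh fell the most, Ctsl from 339, 306 and 295 CPM to 8.31, 7.7 and 8.22 CPM (log2 −5.27 ± 0.17, adjusted p = 1.8e-14) and Ctsh from 306 ± 17.7 to 14 ± 2.6 CPM. Npc1, a cholesterol exporter of the lysosome, fell from 550 ± 17.2 to 50.6 ± 1.51 CPM, and Neu1 (0.37 ± 0.12) and Lgmn (0.18 ± 0.08) were higher, the call of Lgmn being lost without any 1 library (adjusted p = 0.0502 to 0.173). Of 22 genes of the secretory pathway and unfolded protein response, 17 were lower and 1 higher (median −0.569), led by the coat subunit gene Sec24d (log2 −3.32 ± 0.13) and the stress sensor gene Ern1 (−2.79 ± 0.10), with the stress factor gene Ddit3 as the single rise (0.60 ± 0.13). Of 10 MHC class II genes, 8 were lower and 1 higher (median −1.35): H2-DMb1 fell from 75.4 ± 4.01 to 7.07 ± 1.39 CPM, H2-Aa from 241 ± 21.3 to 80.3 ± 2.05 CPM and Cd74 from 349 ± 34.3 to 175 ± 8.51 CPM. H2-Ob, which encodes the beta chain of the B cell inhibitor of peptide loading, rose from 34.8 ± 2.33 to 163 ± 11.5 CPM (log2 2.22 ± 0.14, 1.76e-10), while its partner H2-Oa fell from 52.6 ± 3.77 to 12.2 ± 1.04 CPM. Dendritic cells also express these 3 groups of genes. The summed plasmacytoid dendritic markers went from 12000 to 13372 CPM down to 2372 to 2426 CPM in the same libraries, and their part in these falls was not tested.

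Genes of the BCL2 family changed in both directions. Of 13 tested, 3 were higher, 6 lower and 4 not called (69.2% called, beside 64.3% of all genes, median −0.562). Among survival genes, Bcl2l1, which encodes BCL-XL, rose from 18.2, 14 and 21.3 CPM to 234, 217 and 210 CPM (log2 3.62 ± 0.29, adjusted p = 5.21e-09), Bcl2 fell from 74.4, 64.1 and 79.4 CPM to 13.7, 14.3 and 11.3 CPM (−2.47 ± 0.18, 1.26e-09), Bcl2l2 fell by 2.82 ± 0.16 on the log2 scale and Mcl1 was not called (332 ± 12.7 and 345 ± 28.9 CPM). Among genes that promote death, Bmf (2.63 ± 0.38) and Bcl2l11 (1.34 ± 0.16) rose, and Bbc3 (−2.13 ± 0.43), Pmaip1 (−1.64 ± 0.23), Bid (−1.44 ± 0.13) and Bax (−0.56 ± 0.17) fell.

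Several genes usually linked to later B cells were already higher in pre-B cells. Of 17 mature B and plasma cell genes tested, 11 were higher, 4 lower and 2 not called (88.2% called, beside 64.3% of all genes, median 2.04). Cd55, a shield against complement, rose from 4.32, 3.33 and 3.89 CPM to 111, 98.2 and 94.3 CPM (log2 4.72 ± 0.27, adjusted p = 4.87e-11), Fcmr, the receptor for IgM, from 4.73 ± 0.966 to 102 ± 4.37 CPM, Tnfrsf13c, the BAFF receptor, from 33.9 ± 2.25 to 140 ± 3.45 CPM and Cd40 from 5.07 ± 1.46 to 26.7 ± 3.67 CPM. Fcer2a (2.43 ± 0.403 to 20.9 ± 4.18 CPM) and Cr2 (0.88 ± 0.344 to 8.31 ± 1.83 CPM) rose from low levels. Jchain, which joins secreted antibody, fell from 91.4, 81.4 and 152 CPM to 1.28, 2.69 and 5.32 CPM, and Xbp1, a factor of secretory cells, from 299 ± 13.8 to 79.9 ± 2.8 CPM. Both are also known in plasmacytoid dendritic cells.

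Most receptors that guide cells through tissue fell. The share called was 88.9% of the receptors tested and 75% of the integrin and adhesion genes, beside 64.3% of all genes. Of 18 chemokine and S1P receptor genes, 12 were lower and 4 higher (median −1.39). The 4 higher ones were S1pr1, which lets lymphocytes leave tissue (4.4 ± 2.05 to 102 ± 9.09 CPM, log2 4.54 ± 0.25, adjusted p = 3.14e-11), Ccr7 (12.2 ± 1.88 to 87.8 ± 3.99 CPM) and Cxcr5 (2.59 ± 0.985 to 15.8 ± 0.285 CPM), which guide cells within lymphoid organs, and the marrow retention receptor Cxcr4 (167 ± 30.6 to 274 ± 20.2 CPM), whose call was lost without pre-pro B replicate 1 (adjusted p = 0.0512). Ccr9 fell from 612, 574 and 549 CPM to 1.92, 1.61 and 2.09 CPM. Cxcr3 fell from 120 ± 9.75 CPM to 1 count in all (pooled ratio 2156, 95% counting interval 386.5 to 85188), and Cx3cr1 had no count in pre-B cells (at least 80.6-fold lower). Of 24 integrin and adhesion genes, 13 were lower and 5 higher (median −1.09). Itgb7 fell from 349 ± 8.8 to 3.03 ± 0.697 CPM and Itgal from 733 ± 54.9 to 46.7 ± 1.68 CPM. Icam2 rose by 1.64 ± 0.13, and Itga4, whose product holds B cell precursors to stroma, was not called (−0.02 ± 0.20). The summed plasmacytoid dendritic markers went from 12000 to 13372 CPM down to 2372 to 2426 CPM in the same libraries. The part of dendritic cells in the falls of receptor and adhesion genes was not tested.

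Genes of the Notch pathway went in both directions. Of 15 tested, 7 were lower and 5 higher (median −0.555), beside 33.3% and 31% of all genes. Notch1 fell from 845, 893 and 851 CPM to 292, 312 and 291 CPM (log2 −1.53 ± 0.14, adjusted p = 4.63e-08), Notch2 from 546 ± 14.3 to 192 ± 22.8 CPM, and the ligand gene Dll1 from 26.4 ± 0.0997 to 2.37 ± 0.385 CPM. Dtx1, a target and modulator of Notch, rose from 0.751, 0.666 and 1.71 CPM to 76.7, 67 and 71.2 CPM (log2 6.04 ± 0.40, 3.66e-10). The targets Hes1 (3.55 ± 1.63 to 30.9 ± 3.68 CPM) and Nrarp (2.31 ± 0.562 to 18.7 ± 0.554 CPM) rose too, whereas Hes5 was not called (−0.56 ± 0.46).

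Innate sensing genes were mostly lower. The share called was 88.2% of the Toll-like receptor and adaptor genes and 87% of the interferon genes, beside 64.3% of all genes. Of 17 Toll-like receptor and adaptor genes, 10 were lower and 5 higher (median −1.09). Tlr12 fell from 237 ± 19.5 to 15.4 ± 1.84 CPM, Tlr7 from 373 ± 7.13 to 4.26 ± 0.217 CPM and the adaptor gene Myd88 from 118 ± 4.11 to 50.6 ± 4.11 CPM. Tlr1 rose from 0.437 ± 0.47 to 12.2 ± 0.808 CPM (log2 4.70 ± 0.58) and the brake Irak3 from 2.36 ± 0.921 to 31.2 ± 4.54 CPM (log2 3.71 ± 0.29). Of 23 interferon response genes, 16 were lower and 4 higher (median −1.64). Ifi44 fell from 110, 144 and 136 CPM to 2.88, 3.58 and 6.12 CPM (log2 −4.94 ± 0.41, adjusted p = 7.42e-09) and Mx1 from 175 ± 11.2 to 13.4 ± 1.63 CPM. Ddx58, the gene of the RNA sensor RIG-I, rose from 23.8, 27.5 and 25.5 CPM to 161, 166 and 179 CPM (log2 2.72 ± 0.16, 6.22e-11). Within pre-pro B cells, replicate 2 was the highest for 20 of the 23 interferon genes and replicate 1 the lowest for 20. Plasmacytoid dendritic cells express Toll-like receptor and interferon genes as well, and their summed markers went from 12000 to 13372 CPM down to 2372 to 2426 CPM in the same libraries. Their part in these falls was not tested.

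Markers of other blood cells marked the pre-pro B libraries. The share called was 92.3% of the plasmacytoid and 83.3% of the conventional dendritic genes tested, beside 64.3% of all genes. Of 26 plasmacytoid dendritic genes, 24 were lower in pre-B cells, none was higher and 2 were not called (median −6.36). Runx2 stood at 1219, 1161 and 1092 CPM and then at 1.28, 0.179 and 0.967 CPM, and Mpeg1, a pore-forming protein gene of phagocytes, at 1248, 1133 and 1058 CPM and then at 6.87, 10.2 and 11.3 CPM. Lag3 fell from 283 ± 21.8 CPM to 1 count (pooled ratio 5080, interval 911.3 to 200685), and Cd209d had no count in pre-B cells (at least 489-fold lower). The members not called were Spib and Zeb2, both also expressed in B cells, and Zeb2 was called higher without TMM scaling (log2 0.436). Tcf4 (309 ± 12.1 CPM), Irf8 (236 ± 17.4) and Ly6d (112 ± 4.41) kept sizeable levels in pre-B cells. Of 12 conventional dendritic genes, 10 were lower and none higher (median −4.46), and their summed level went from 1722 to 1851 CPM down to 25.3 to 29.4 CPM. Clec9a fell from 217 ± 6.48 CPM to 1 count (pooled ratio 3908, interval 701 to 154398), Sirpa from 471 ± 31.3 to 4.26 ± 0.29 CPM and Itgax, the gene of CD11c, from 309 ± 3.8 to 0.875 ± 0.382 CPM. Zbtb46, a factor of conventional dendritic cells, was low at both stages (1.59 ± 0.703 and 0.433 ± 0.456 CPM).

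T, NK and myeloid markers were mostly lower too, several of them from low levels. The share called was 83.3%, 76.5% and 71.4% of those tested, beside 64.3% of all genes. Of 18 T lineage genes, 13 were lower and 2 higher (median −3.34). Cd8b1 had no count in pre-B cells (at least 401-fold lower), Cd28 fell from 52.4 ± 9.4 CPM to 3 counts (pooled ratio 313, interval 107 to 1519) and Thy1 from 35.3 ± 1.9 to 2.18 ± 1.06 CPM. The defining T cell receptor genes Cd3e, Cd3d and Cd3g were near 0 in pre-pro B cells as well (0.646 ± 0.657, 1.06 ± 0.372 and 0.77 ± 0.343 CPM). Cd2, a T cell gene that mouse B cells express, rose from 1.69, 1.5 and 2.18 CPM to 98.8, 101 and 91.5 CPM (log2 5.74 ± 0.31, adjusted p = 2.88e-11), and Zap70 rose from 3.73 ± 0.632 to 8.38 ± 1.3 CPM. Of 17 NK genes, 13 were lower and none higher (median −4.3), yet the cytotoxic genes stood low in pre-pro B cells too, with Prf1 at 2.98 ± 0.996 CPM and Gzmb at 0.319 ± 0.312 CPM. Of 14 myeloid genes, 9 were lower and 1 higher (median −3.78): Tyrobp fell from 143 ± 10.8 to 10.4 ± 0.656 CPM, Itgam rose from 12 ± 2.54 to 52.5 ± 2.07 CPM, and Lyz2 and S100a8 were under 4 CPM in each library. The endothelial genes Cdh5 (230 ± 24.6 to 8.46 ± 1.94 CPM) and Kdr (159 ± 15.7 to 1.01 ± 0.364 CPM) fell, while Vwf and Emcn stood under 1 CPM at both stages. Of 4 erythroid and megakaryocyte genes tested, 1 was lower, Gp1ba, and this call was lost without pre-pro B replicate 2 and without pre-B replicate 2 or 3, which left 0 lower. The call of Gp1ba was also lost without TMM scaling (adjusted p = 0.0651), with every gene that had a count kept (0.06) and with replicate number in the fit (0.0563). The globin genes had no count. The summed level of the 15 erythroid and megakaryocyte genes was 5 to 14.7 CPM in all 6 libraries.

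Of 17 stem and progenitor genes, 13 were lower and 4 higher (100% called, beside 64.3% of all genes, median −3.28). Csf2rb, a receptor chain for IL-3 and GM-CSF, fell from 431, 433 and 406 CPM to 15.2, 18.6 and 16 CPM (log2 −4.67 ± 0.19, adjusted p = 5.55e-13), Hoxa9 from 33.8 ± 2.17 to 0.774 ± 0.171 CPM, Lmo2 from 163 ± 8.49 to 13.9 ± 0.512 CPM and Kit from 34.1 ± 2.7 to 8.07 ± 1.21 CPM. The members that rose were the repressor genes Gfi1b (0.562 ± 0.0617 to 18.6 ± 1.48 CPM, log2 4.99 ± 0.40) and Gfi1 (6.3 ± 0.843 to 43.4 ± 5.97 CPM, log2 2.79 ± 0.25), Sox4 (109 ± 7.91 to 430 ± 21.2 CPM) and Erg (28.2 ± 6.86 to 50 ± 6.26 CPM). Gfi1 and Sox4 are known to act in early B cells.

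Immediate early genes, which respond to stimulation and to handling, were mostly not called (10 of 18, with 4 higher and 4 lower, median 0.148; 2 were lower without pre-pro B replicate 1 or without pre-B replicate 3). Egr3 rose from 1.13, 1.5 and 0.934 CPM to 19.7, 11.6 and 10.5 CPM and Dusp2 from 36.3 ± 5.36 to 148 ± 25.1 CPM, and Fos fell from 242, 170 and 185 CPM to 110, 61.1 and 76.9 CPM (log2 −1.26 ± 0.25, adjusted p = 0.000234). Replicate 1 was the highest for 14 of the 18 genes in pre-pro B cells and for 15 of the 18 in pre-B cells, Fos among them in both.

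Few genes of the ribosome and the respiratory chain were called, whereas 68.1% of the solute carriers and 57% of the Zfp zinc finger genes were, beside 64.3% of all genes. Of 78 ribosomal protein genes, 3 were higher, 8 lower and 67 not called (median −0.0844), and of 80 respiratory chain genes 9 were higher and 9 lower (median −0.0106). All 82 ribosomal genes in the counts summed to only 2285 to 2581 CPM in pre-pro B and 2173 to 2315 CPM in pre-B cells. Whether reads lost to near-identical copies, as named above for Gapdh, lowered these sums or the number of calls was not tested. Leaving out pre-pro B replicate 1 or 3, or pre-B replicate 2 or 3, left 3 to 5 respiratory genes higher, and 5 ribosomal genes were lower without pre-pro B replicate 1 or 2. Without pre-pro B replicate 2 or pre-B replicate 2, 1 ribosomal gene was higher. With the 6 WT libraries fitted alone, 20 ribosomal genes were lower, and 15 respiratory genes were higher and 19 lower. Among the respiratory genes Cox6a2, a subunit of muscle and of plasmacytoid dendritic cells, fell from 105 ± 10.9 to 7.7 ± 0.673 CPM. Of 188 solute carrier genes, 86 were lower and 42 higher (median −0.307). Slc41a2, a magnesium transporter, fell from 298, 282 and 287 CPM to 1.44, 1.07 and 2.09 CPM (log2 −7.52 ± 0.23, adjusted p = 1.02e-14), and Slc11a2, an iron transporter, rose from 15.1 ± 3.52 to 135 ± 5.2 CPM (log2 3.15 ± 0.19). Of 291 Zfp zinc finger genes, 125 were higher and 41 lower (median 0.319), mostly by small folds, since 19 and 14 were called against the 2-fold minimum. Zfp821 rose from 13.9 ± 2.06 to 90.7 ± 5.63 CPM, Zfp467 fell from 41.2 ± 3 to 0.667 ± 0.0431 CPM, and Zfp521, a factor of early progenitors, fell from 57.6 ± 3.22 to 5.21 ± 1.63 CPM.

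**Figure D4:**
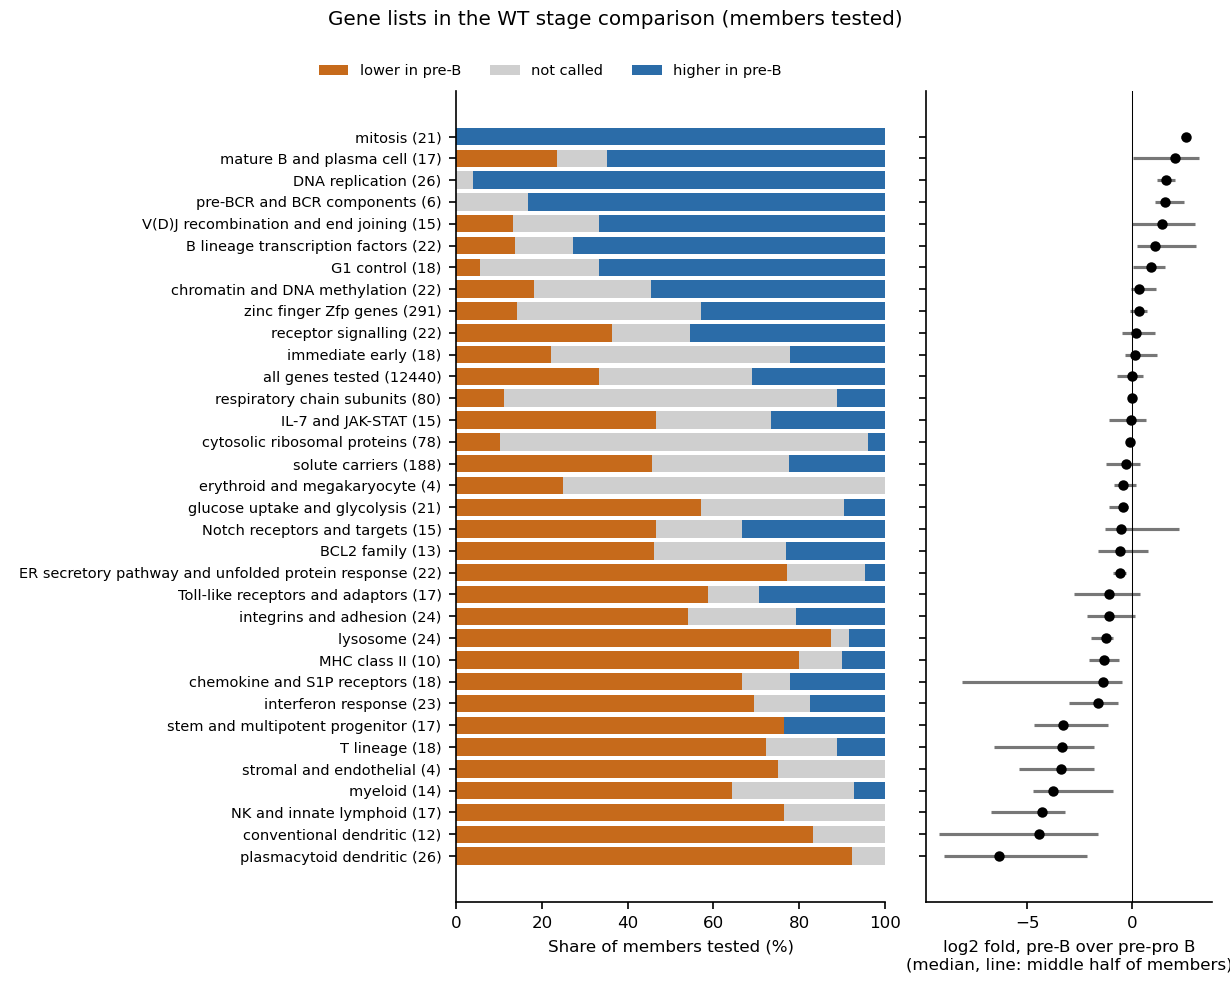
Left, the share of tested members of each gene list that were lower (orange), not called (grey) or higher (blue) in WT pre-B cells, with the number tested in brackets; right, the median log2 fold and the interquartile range of the members. Mitosis genes have the highest median, 2.55, and plasmacytoid dendritic genes the lowest, −6.36; all genes tested have −0.00949.

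The 10 largest rises among genes with at least 10 CPM in pre-B cells started from near 0. Col5a3, a collagen chain, rose from 0.989 ± 0.943 to 422 ± 82.4 CPM (log2 8.75 ± 0.43, adjusted p = 6.13e-12). Klhl14, an adaptor of ubiquitin ligases known in B cells, rose from 0.218 ± 0.235 to 102 ± 9.04 CPM and 4930426D05Rik from 0.26 ± 0.449 to 64 ± 9.35 CPM. By RefSeq position 4930426D05Rik lies within Klhl14, and whether their rises are separate was not tested. Egfl6, a secreted matrix protein gene, rose from 2 counts to 78.4 ± 3.27 CPM (pooled ratio 696.6, interval 192.5 to 5758), and Gpr12, Tmc7 and Islr2 rose from 2 or 3 counts to 49.1 ± 5.75, 41.4 ± 1.72 and 28.9 ± 7.38 CPM. The rest had no count in pre-pro B cells and were at least 126-fold (Fam189a1), 108-fold (Shank2) and 82-fold (Col25a1) higher. Kcnk13, a potassium channel gene, and 2310008N11Rik had no count in pre-pro B cells either, with 9.31 ± 2.96 and 6.48 ± 0.223 CPM in pre-B cells. In all, 37 genes tested had no count in any pre-pro B library and 167 none in any pre-B library.

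The 10 largest falls were 7 genes with no count and 2 genes with 1 count in pre-B cells besides Chdh, an enzyme of choline oxidation that had none (616 ± 15.6 CPM in pre-pro B cells, at least 3707-fold lower). Adam11 fell from 647 ± 14.1 CPM (pooled ratio 11677, interval 2095 to 461268) and the collagen receptor gene Ddr1 from 402 ± 23.1 CPM (pooled ratio 7270, interval 1304 to 287198). The genes with no count were the lectin genes Clec10a (at least 1028-fold lower) and Cd209a (at least 738-fold), Cd8a (at least 809-fold), Rtn4rl1 (at least 799-fold), Cd300lf (at least 704-fold), Klra17 (at least 667-fold) and Ctnnd2 (at least 584-fold). Cd209a and Clec10a are also on the conventional dendritic list, and Cd8a on the T lineage list.

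Ikaros and Aiolos regions of cultured WT pre-B cells were set beside the stage calls, as both factors act at this stage. The authors' lists held 3683 Ikaros and 431 Aiolos regions on mm10, and 20 Aiolos regions overlapped an Ikaros region by at least 1 base. An Ikaros region lay within 10 kb of 14.9% of the genes higher in pre-B cells (574 of 3843 with a position), 15.7% of those lower (648 of 4133) and 12.4% of those not called (548 of 4434). The shares were 18.9% and 19.7% for genes more than 2-fold higher and lower. Gene length differed too, with a median of 28310, 22225 and 18489 bases in genes higher, lower and not called, and the shares varied with it. In genes of up to 10 kb they were 11.3%, 10.6% and 7.66%, in genes of 10 to 30 kb 10.5%, 11.9% and 10.5%, and in longer genes 19.4%, 22% and 18.6%. Within 1 kb of a start they were 1.95%, 1.72% and 1.94%. There was 1 library per antibody, so these shares have no replicate error.

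By list, an Ikaros region lay within 10 kb of 14 of 22 receptor signalling genes, 11 of 22 B lineage factors and 5 of 10 MHC class II genes, against 1770 of all 12410 genes with a position (14.3%), and of 3 of 26 DNA replication, 2 of 21 mitosis and 2 of 24 lysosome genes. Among the MHC class II genes, H2-DMa, H2-DMb1 and H2-DMb2 share the region chr17:34143283-34143962, which was counted for each. The lists were not matched for gene length. Over all genes tested, the share was 9.52% in genes of up to 10 kb and 20% in genes over 30 kb. The folds given here are the authors' own per region. Over the Cd22 promoter printed above lay a region at chr7:30878545-30879313 with a fold of 21.8, which covers the EBF motif and the Ikaros core. A region at chr4:118437348-118438123 (fold 17.2) covered most of the Cdc20 promoter, and one at chr17:44814659-44815108 (fold 7.2) most of that of Runx2, which also held 4 regions further into the gene. Within Pax5 lay chr4:44670746-44671466 (fold 20.4) and within Socs2 chr10:95394359-95394968 (fold 12.5). Ebf1 had 6 regions, 1 of them at a start, chr11:44618751-44619201 (fold 6.66). Genes with a region thus include strong rises (Cd22, Pax5, Ebf1) and a strong fall (Runx2).

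The WT stage difference was last set beside that of the mutant mice, to find genes whose course from pre-pro B to pre-B differs with the Aiolos substitution. The difference between homo and WT was called for 1809 genes (14.5%), 643 with a higher and 1166 with a lower log2 difference in homo, and that between het and WT for 703 (5.65%), 230 and 473. Both share the WT libraries. Ctnna1, which encodes alpha-catenin, went from 287 ± 3.32 to 149 ± 4.75 CPM in WT, from 285 ± 13.1 to 50.2 ± 2.47 CPM in the het and from 302 ± 4.06 to 28.3 ± 3.51 CPM in homo. Zscan12, a zinc finger gene, stood at 15.6 ± 0.762 and 17.6 ± 1.41 CPM in WT and went from 16.2 ± 0.554 to 1.02 ± 0.266 CPM in the het and from 16.5 ± 1.19 to 0.565 ± 0.0776 CPM in homo. Galnt10, a glycosyltransferase gene, went in WT from 62.6 ± 3.89 to 92.5 ± 5 CPM and in homo from 60.6 ± 2.03 to 2.07 ± 1.47 CPM. Asph went the other way: its WT levels of 166 ± 4.35 and 16.1 ± 2.97 CPM stood against a course from 168 ± 23.3 to 74.9 ± 4.37 CPM in het and from 141 ± 12.2 to 112 ± 12 CPM in homo, and Tspan31 likewise was in pre-B cells at 16.4 ± 2.84 CPM with both alleles intact, 47.6 ± 1.82 CPM with 1 mutant copy and 67.4 ± 7.82 CPM with both mutant. In each of these 5 genes the genotype means lay further apart in pre-B than in pre-pro B cells. A lower log2 stage difference in homo was called for 9.37% of all genes, for 8 of 21 mitosis, 5 of 26 DNA replication, 5 of 22 chromatin, 5 of 18 immediate early and 4 of 18 T lineage genes, and for 0 of 6 pre-BCR genes. Depth differed with genotype, at 8592557 to 9048055 counts in homo pre-pro B cells and 1888871 in homo pre-B replicate 3, and some homo and het libraries came from XY mice. With XX libraries alone, a choice made after seeing the data, 1411 and 857 genes were called. Without homo pre-B replicate 3, 2155 homo differences were called. Counts of abundant genes did not follow depth: between 2 het pre-pro B libraries whose depths differed 1.87 times, the median count ratio was 2.14 for genes of 10 to 50 CPM and 1.42 for the 16 most abundant genes. This limits the folds of abundant genes between libraries of unequal depth. Its bearing on the folds of abundant genes between the WT stages, whose depth was alike, was not tested.

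**Figure D5:**
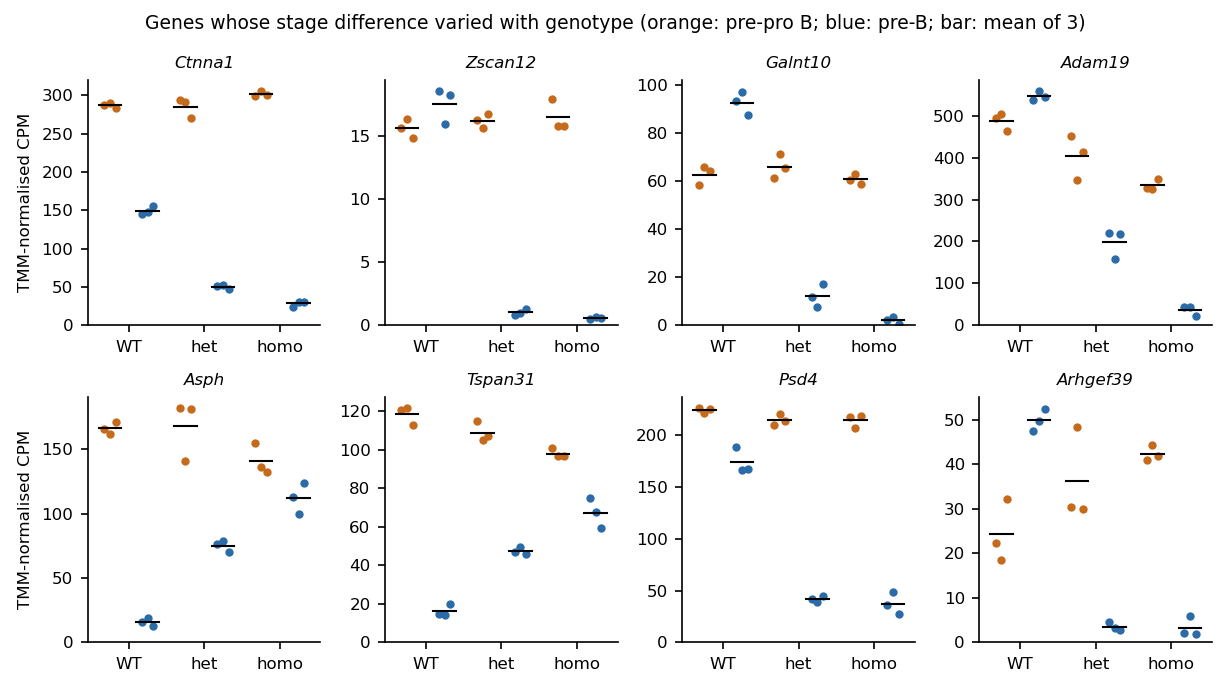
Levels (TMM-normalised CPM, linear axis from 0) of 8 genes whose stage difference varied with genotype, in WT, het and homo cells; points are the 3 libraries of a group, orange for pre-pro B and blue for pre-B, and bars are means. Ctnna1, Zscan12, Galnt10, Adam19, Psd4 and Arhgef39 are lower in mutant than in WT pre-B cells, and Asph and Tspan31 are higher.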

How the data were processed

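RNA was read from 18 libraries, 3 for each stage and genotype, as deposited counts of reads per gene symbol, 1 library per file. Per the submitters' processing notes, STAR 2.7.0, HISAT2 2.1.0 and MACS2 2.1.1 were used with the mm10 build, with no role given for each. The 5 entries that name no gene were left out; reads in no gene were 29.85% to 40.15% of each library's total. Regions bound by Ikaros or Aiolos came as the authors' lists, 1 library each, with a fold (ratio) over background and −log10 p and q values deposited per region.

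Counts were fitted with edgeR 4.0.16 (R 4.3.3, limma 3.58.1; robust quasi-likelihood, TMM, filterByExpr by group) on all 18 libraries, with Benjamini-Hochberg adjustment over the 12440 genes tested and a threshold of 0.05. glmTreat tested a 2-fold minimum, and the interaction of stage and genotype the difference from WT. Where a stage had no count, folds are bounds against 3 counts over its 3 libraries; pooled ratios of counts carry 95% exact intervals that cover counting error only. DESeq2 1.42.0 was an alternative. Genes named are list members, the 10 largest rises and falls with at least 10 CPM in the higher stage, genes with no count in one stage and the leading interactions. Members and lists were chosen with earlier results of these data known. Values of some list members are not reported here, although list counts include them.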

Additional observations from a re-analysis of the deposited data

Results flagged for a closer look

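A different course from pre-pro B to pre-B cells in mutant than in WT mice, by the interaction of stage and genotype in edgeR, put these genes here. The values are differences of log2 stage folds, mutant minus WT, for the genes named above, with an adjusted p under 0.05 each. Both comparisons share the WT libraries, and genes with no count in a group have fitted values that are no bound.

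Between homo and WT, the stage difference was called for 1809 genes in all. In homo the difference was lower for Shank2 (−11.4), Fcer2a (−6.41), Kcnk13 (−6.09), Galnt10 (−5.14), Zscan12 (−5.02), Arhgef39 (−4.5), Adam19 (−3.3), Mx1 (−3.25) and Egr3 (−2.91). Next came, lower in homo, Tnfrsf13c (−2.68), Polm (−2.65), Ctnna1 (−2.49), Fos (−2.42), Thy1 (−2.13), Gfi1 (−2.09), Psd4 (−2.09), Zfp821 (−2.08) and Bmf (−2.07). Also lower in homo were Cd2 (−2.07), H2-Oa (−1.87), S1pr1 (−1.7), Ccr7 (−1.67), Dusp2 (−1.51), Ctsh (−1.5), Zap70 (−1.46), Dok3 (−1.39) and Bcl2 (−1.36). Further genes lower in homo were Csf2rb (−1.32), Hk1 (−1.32), Tet3 (−1.3), E2f2 (−1.25), Cdc20 (−1.11), Pfkm (−1.06), Cdkn2c (−0.969), Notch2 (−0.942) and Fcmr (−0.908). Smaller values, lower in homo, were those of Stat5a (−0.906), Spn (−0.894), Bcl11a (−0.749), Pole (−0.739), Vav2 (−0.733), Ezh1 (−0.619), Lgmn (−0.574) and Prkdc (−0.56). In homo the difference was higher for Chdh (5.73), Jchain (3.49), Asph (3.04), Ifi44 (2.52), Tspan31 (2.33), Cox6a2 (1.96), Erg (1.94) and Slc2a6 (1.81). Next came, higher in homo, Hoxa9 (1.54), Fyn (1.42), Ctsl (1.24), Sec24d (1.15), Xbp1 (1.08), Blnk (0.853), Gapdh (0.815) and Tcf4 (0.74).

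Between het and WT, the stage difference was called for 703 genes in all. In het the difference was lower for Arhgef39 (−4.38), Thy1 (−4.32), Zscan12 (−4.12), Galnt10 (−2.97), Mx1 (−2.0), Psd4 (−1.98), Zap70 (−1.93), Irak3 (−1.89) and Gfi1 (−1.84). Next came, lower in het, Cd2 (−1.69), Fos (−1.61), Ctnna1 (−1.56), Polm (−1.49), Csf2rb (−1.33), Adam19 (−1.19), Lmo2 (−1.11), Hk1 (−1.03) and Spn (−1.02). Also lower in het were H2-Oa (−1.0), Pfkm (−1.0), E2f2 (−0.954), Ccr7 (−0.937), Tnfrsf13c (−0.925), Zfp821 (−0.901) and Tet3 (−0.643). In het the difference was higher for Asph (2.21), Erg (1.8), Tspan31 (1.66), Slc2a6 (1.54), Cox6a2 (1.45), Tyrobp (1.21), Sec24d (1.02), Ctsl (0.829) and Fyn (0.715). Next came, higher in het, Xbp1 (0.607).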

How the results depend on the processing

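The 7997 WT calls became 6920 to 9301 under other scaling, filters, DESeq2 and a fit of the 6 WT libraries alone (9301), and 7417 to 7551 without 1 replicate. The 3189 calls past 2-fold became 2501 to 3347, and 3015 to 3115 without 1 replicate. The 1809 homo differences became 1619 to 2189, and 1349 to 2155 without 1 replicate, and the 703 het differences 640 to 995, and 469 to 879. With XX libraries alone, chosen after seeing the data, they were 1411 and 857. No named gene reversed. Scaling without TMM moved the split of WT calls from 3851 higher and 4146 lower to 4075 and 3895.

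With a replicate block, 7819 WT genes were called, 3155 past 2-fold, and 1595 and 577 in the homo and het differences. The labels do not say what the number marks. The correlations of deviations of WT libraries with the same number were 0.0757, 0.0656 and 0.122, all 6 correlated best with their own number, and libraries of the same genotype and number were of the same sex in 9 of 9 pairs over all genotypes, 3 of them XY. Among named genes the block ended the calls of Lgmn (adjusted p = 0.0656), Spi1 (0.062) and Gp1ba (0.0563) and added Gzmb (0.0296).

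With the 6 WT libraries alone, Il7r was called (1.01e-06), as were Blnk, Ikzf1, Atm, Prkdc, Slc2a1 and Tk1; Il7r also passed without TMM (0.0376). With Ikaros regions inside the gene alone, the shares were 9.21%, 9.41% and 6.16% for genes higher, lower and not called, and with a −log10 q of at least 5 they were 11.3%, 12.2% and 9.7%. Promoter motif shares by stage call were not run. Genes under about 3 counts in all carry folds limited by depth.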
